A study of Mus musculus with 18 samples.

Results

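The cell cycle and DNA replication genes of mouse liver comprised 37 genes of the 15572 in the RNA-seq table, chosen by function and matched by gene symbol. The choice was made with earlier results of these data known, so counts and shares of these genes are not independent of the data. They fell into 10 replication genes (Mcm2 to Mcm7, Pcna, Rrm1, Rrm2 and Tyms), 13 mitosis genes (Mki67, Top2a, Ccna2, Ccnb1, Ccnb2, Cdk1, Cdc20, Aurka, Aurkb, Plk1, Bub1, Foxm1 and Wee1) and 14 genes of G1 and of the entry into S phase (Ccnd1, Ccnd2, Ccnd3, Ccne1, Ccne2, Cdk2, Cdk4, Cdk6, Cdc25a, Cdkn1b, Cdkn2c, E2f1, E2f8 and Rb1). All 37 were found, and 36 had enough counts to be tested. Bub1, a kinase of the spindle checkpoint, had 5 and 5 counts in the WT and 8 and 12 in the libraries labelled JMJD1C-LKO and was not tested. Aurkb passed that filter by its counts in the latter libraries alone.

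RNA-seq compared refed WT with refed JMJD1C-LKO liver, with 2 libraries per group, each made from RNA pooled over animals. ATAC-seq, which finds open chromatin, used 2 single livers each of WT mice after fasting, WT mice after refeeding and refed JMJD1C-LKO mice. ChIP-seq for H3K9me2, with input, was made from 2 WT fasted and 2 WT refed livers. All mice were C57BL/6J on chow for 6 to 8 weeks, fasted overnight, and the refed mice then ate a high carbohydrate diet, for 6 h by the labels and for 8 to 16 h by the methods. The labels give all samples the same refeeding text, and the fasted and refed groups of ATAC-seq and ChIP-seq rest on the letters F and R in the sample titles. The methods and the reporting summary give different ages for the mice, the latter 6 weeks at the start of use. JMJD1C is a Jumonji-family demethylase of histone H3 lysine 9. JMJD1C-LKO mice carry floxed Jmjd1c alleles and an albumin-Cre transgene, which is active in hepatocytes, so that endothelial, Kupffer and blood cells of the liver keep the gene.

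Most cells of adult liver rest outside the cell cycle. Cyclins D with Cdk4 and Cdk6, and cyclins E with Cdk2, phosphorylate the Rb protein and release E2F factors, which activate replication genes at the entry into S phase. Later, the MuvB complex with B-Myb and Foxm1 activates mitosis genes through a promoter element named CHR, often beside CCAAT boxes bound by NF-Y. RNA for many, though not all, mitosis genes is therefore made mainly by dividing cells, whereas many replication and G1 genes are also transcribed at rest.

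Total counts lay between 51265128 and 54400509 per RNA-seq library. Jmjd1c itself stood at 21.99 and 22.8 CPM (read counts scaled to the TMM-normalized library size) in the WT and 20.04 and 20.5 CPM in those labelled JMJD1C-LKO (edgeR adjusted p = 0.233). Which exons are deleted is not given in the sources used here, so counts over whole transcripts may not check the deletion. The paper itself reports lower Jmjd1c mRNA by RT-qPCR and no detectable Jmjd1c protein in livers of JMJD1C-LKO mice. The libraries are here called labelled JMJD1C-LKO. The 8 hepatocyte markers, with Alb, Apoa1 and Ttr among them, summed to 114187 and 111289 CPM in WT and 113923 and 102723 CPM in the libraries labelled JMJD1C-LKO. Of these 8, Tat and Cps1 were higher in the libraries labelled JMJD1C-LKO. The H3K9me2 list of WT refed replicate 1 stood apart with 1297 summits against 7690 to 13456 in the other 3 livers, and the ATAC lists of the livers labelled JMJD1C-LKO were short, with 1450 and 825 summits against 3119 to 7632 in WT.

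RefSeq (GRCm38.p6) promoter sequences were found for 28 of the 37 genes. For Mcm4, Wee1, Ccna2, Aurkb, Foxm1, Rb1, Ccnd1, Ccnd2 and Ccne2 the promoter set used held no entry. Mcm3 and Aurka are shown because both WT refed livers had an ATAC summit there (Mcm4 was the only other such gene). Top2a and Ccnb2, which rose most in RNA, E2f8 and Cdc25a, which fell most in the G1 group, and Cdk4, the most abundant of the genes per length, were added after their values had been seen. Each line gives the 250 bases before the transcript start, 5′ to 3′. Capitals mark CCAAT, the CHR letters TTTGAA, the E2F letters TTTCGCGC, TTTGGCGC, TTTCCCGC or TTTGCCGC, and the E-box CACGTG, the site type bound by USF factors, each searched on both strands.
Mcm3: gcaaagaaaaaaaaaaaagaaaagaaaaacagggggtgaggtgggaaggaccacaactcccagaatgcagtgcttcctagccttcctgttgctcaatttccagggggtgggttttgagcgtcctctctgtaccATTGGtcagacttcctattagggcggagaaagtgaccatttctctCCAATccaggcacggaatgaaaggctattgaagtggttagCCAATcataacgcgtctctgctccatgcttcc
Aurka: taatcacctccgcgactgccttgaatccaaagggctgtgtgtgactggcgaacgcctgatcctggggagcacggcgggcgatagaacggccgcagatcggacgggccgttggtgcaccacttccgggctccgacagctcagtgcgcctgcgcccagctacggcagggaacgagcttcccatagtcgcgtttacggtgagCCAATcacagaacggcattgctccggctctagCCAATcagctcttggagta
Top2a: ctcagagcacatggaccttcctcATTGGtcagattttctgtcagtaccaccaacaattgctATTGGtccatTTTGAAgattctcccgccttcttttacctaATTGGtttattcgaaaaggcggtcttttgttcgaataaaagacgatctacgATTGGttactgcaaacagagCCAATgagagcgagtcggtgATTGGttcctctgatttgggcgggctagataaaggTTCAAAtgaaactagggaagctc
Ccnb2: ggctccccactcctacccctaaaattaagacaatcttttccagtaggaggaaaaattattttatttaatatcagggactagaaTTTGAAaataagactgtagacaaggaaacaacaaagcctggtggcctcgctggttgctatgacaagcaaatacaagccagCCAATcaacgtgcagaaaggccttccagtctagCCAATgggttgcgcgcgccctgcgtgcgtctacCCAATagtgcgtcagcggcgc
E2f8: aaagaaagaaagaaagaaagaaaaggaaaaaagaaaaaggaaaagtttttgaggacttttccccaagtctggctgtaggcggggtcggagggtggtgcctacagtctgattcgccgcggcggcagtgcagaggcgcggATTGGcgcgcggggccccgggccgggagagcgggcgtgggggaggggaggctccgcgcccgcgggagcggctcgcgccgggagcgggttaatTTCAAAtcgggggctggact
Cdc25a: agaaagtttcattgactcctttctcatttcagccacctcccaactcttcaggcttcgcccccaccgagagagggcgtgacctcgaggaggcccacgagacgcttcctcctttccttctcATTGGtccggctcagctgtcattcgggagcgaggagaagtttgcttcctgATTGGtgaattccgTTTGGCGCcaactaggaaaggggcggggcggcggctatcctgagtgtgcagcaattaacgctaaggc
Cdk4: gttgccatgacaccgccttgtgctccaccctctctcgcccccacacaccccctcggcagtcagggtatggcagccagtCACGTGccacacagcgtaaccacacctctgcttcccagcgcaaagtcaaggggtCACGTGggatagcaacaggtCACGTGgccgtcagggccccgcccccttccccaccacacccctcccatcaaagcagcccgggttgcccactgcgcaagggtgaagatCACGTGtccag
They lie at chr1:20820313-20820562 on the minus strand (Mcm3), chr2:172370571-172370820 on the minus strand (Aurka), chr11:99024190-99024439 on the minus strand (Top2a), chr9:70421555-70421804 on the minus strand (Ccnb2), chr7:48881597-48881846 on the minus strand (E2f8), chr9:109875329-109875578 on the plus strand (Cdc25a) and chr10:127063285-127063534 on the plus strand (Cdk4). All are upstream of the annotated first exon.

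CCAAT occurred before 22 of the 28 genes, against 33.8% of all 32851 promoters of the same length. A gene counted when any of its promoters matched (Mcm7, Cdkn2c and Ccnd3 had more than a single one). The shares of all are per promoter, so the units differ. CCAAT was present in 9 of 9 mitosis, 8 of 9 replication and 5 of 10 G1 genes. The Top2a promoter held 6 such boxes and that of Ccnb2 3, at 87, 54 and 21 bases before the start. The CHR letters were found in 5 of 9 mitosis genes (Ccnb2, Cdc20, Cdk1, Mki67 and Top2a), in 1 of 9 replication genes (Mcm2) and in 1 of 10 G1 genes (E2f8), against 16% of all promoters. E2F letters were found in 3 of 9 replication genes (Mcm5, Mcm6 and Mcm7), in Cdk1, and in Cdc25a and Cdk2 of the G1 group, against 1.86% of all promoters. In Mcm5 and Mcm6 a pair of E2F matches overlapped on opposite strands, and no other matches overlapped. CACGTG was present in 3 of the 28 genes (Tyms, Cdk6 and Cdk4), against 6.02% of all promoters, and the Cdk4 promoter held 4 copies. These matches describe the letters and are not evidence of binding.

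Of the 36 genes tested, 7 were higher and 8 lower in the libraries labelled JMJD1C-LKO than in WT (edgeR's quasi-likelihood F test, Benjamini-Hochberg adjusted over all 14151 genes tested, adjusted p below 0.05). These 15 genes are 41.7% of the members tested, beside 28.0% of all genes tested (14.6% higher and 13.4% lower). By group, replication had 0 genes higher and 3 lower of 10, mitosis 6 higher and 1 lower of 12, and G1 and S entry 1 higher and 4 lower of 14. The median log2 fold changes were -0.17, 1.28 and -0.00, respectively, beside 0.01 for all genes tested. The mitosis median includes Aurkb, which passed the count filter by the libraries labelled JMJD1C-LKO alone. In 25 of the 36 genes the 2 WT values did not overlap the 2 values labelled JMJD1C-LKO, beside 67.4% of all genes. Without WT replicate 1 or WT replicate 2 the number of members past the threshold was 6 or 5, with 1265 or 1068 genes over the whole table. Counting the most abundant transcript of each gene in place of the sum left 9.

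**Figure D1:**
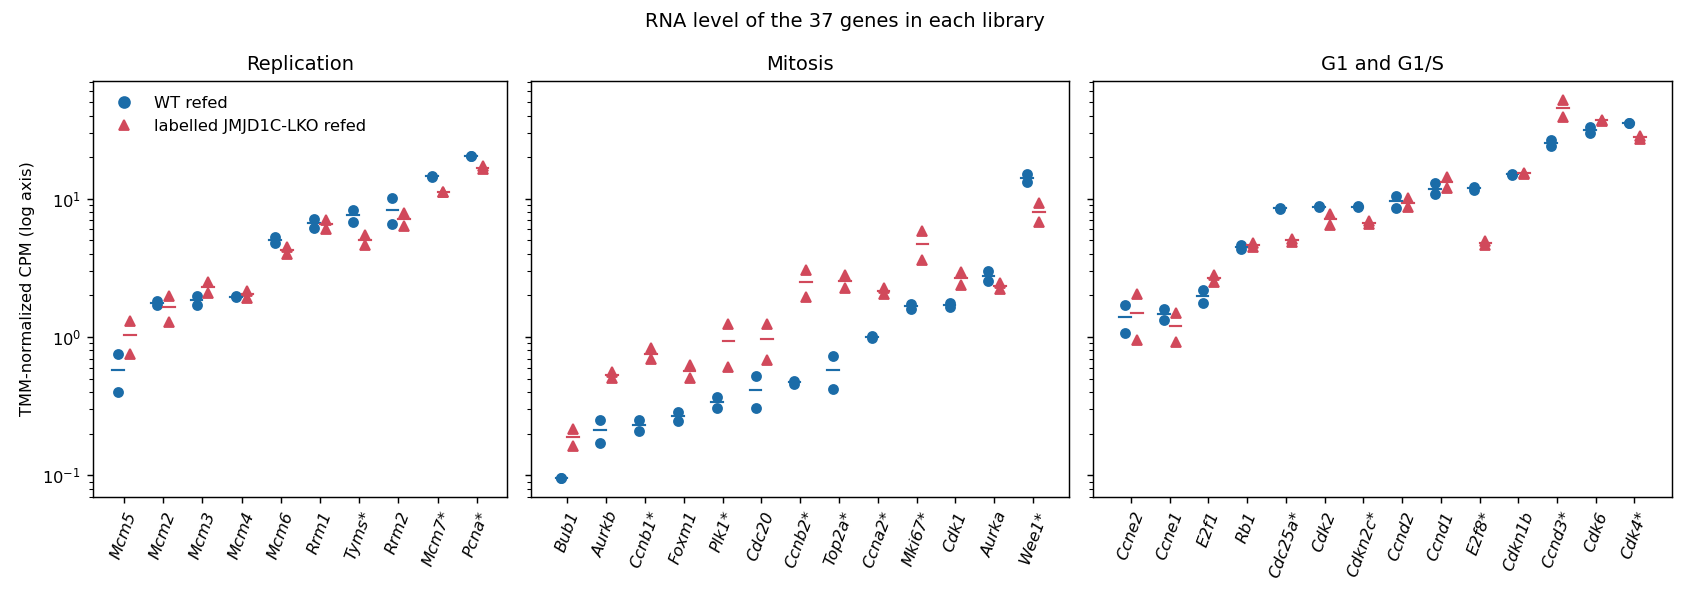
RNA level of each of the 37 genes in the 4 libraries (TMM-normalized CPM, log axis), by group and ordered by WT mean; circles are WT refed, triangles libraries labelled JMJD1C-LKO refed, bars group means (n = 2), and asterisks genes past the threshold. Most mitosis genes sit near or below 1 CPM in WT and higher in the libraries labelled JMJD1C-LKO, whereas the 2 most abundant ones, Aurka and Wee1, sit lower there.

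Levels per length ranged over 3 orders of magnitude. On the scale of CPM per kilobase in WT liver, Cdk4 was highest at 25.9, followed by Pcna at 16.2 and Ccnd3 at 12.8. Cdkn2c, Cdkn1b and Mcm7 lay close together at 6.59, 6.25 and 6.05. In the mitosis group, Wee1 (4.22) and Aurka (1.46) stood above the other 11 genes, which lay between 0.0222 for Bub1 and 0.391 for Cdk1. In the libraries labelled JMJD1C-LKO, Cdk4 (20.3) was no longer above Ccnd3 (22.8).

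Of the replication genes, 3 fell and none rose. Pcna, the sliding clamp of the replicative polymerases and the most abundant of the group, measured 20.4 and 20.4 CPM in WT and 17.2 and 16.3 CPM in the libraries labelled JMJD1C-LKO. The groups did not overlap, and the difference was small, a log2 fold change of -0.28 ± 0.09 (SE) (edgeR adjusted p = 0.0395). Mcm7, a subunit of the replicative helicase, was measured at 14.6 and 14.4 CPM in WT and 11.2 and 11.2 CPM in the libraries labelled JMJD1C-LKO, a log2 fold change of -0.37 ± 0.10 (SE) (edgeR adjusted p = 0.0213). Tyms, thymidylate synthase, makes the dTMP needed for DNA. It fell from 8.31 and 6.84 CPM to 5.44 and 4.63 CPM, with a log2 fold change of -0.59 ± 0.16 (SE) (edgeR adjusted p = 0.0236).

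These 3 calls were lost under some of the alternatives. Leaving out WT replicate 1 or WT replicate 2 gave edgeR adjusted p of 0.168 and 0.147 for Mcm7, 0.209 and 0.217 for Pcna and 0.247 and 0.0758 for Tyms. Leaving out the library labelled JMJD1C-LKO replicate 2 gave 0.102 for Pcna and 0.0619 for Tyms (edgeR adjusted p), and Mcm7 kept its call. Pcna also missed the threshold in DESeq2 (adjusted p = 0.106). By the most abundant transcript, the edgeR adjusted p was 0.0867 for Pcna and 0.634 for Tyms, whose log2 fold change was then -0.28.

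The other 7 replication genes did not pass. The helicase subunit Mcm3 measured 1.72 and 1.99 CPM in WT and 2.08 and 2.49 CPM in the libraries labelled JMJD1C-LKO, and its partner Mcm4 measured 1.95 and 1.97 CPM and 2.15 and 1.92 CPM. For the 5 remaining genes, Mcm2, Mcm5, Mcm6, Rrm1 and Rrm2 (the last 2 encode the ribonucleotide reductase subunits), log2 fold changes lay between -0.25 for Mcm6 and 0.84 for Mcm5. Rrm2 shows how far WT libraries could differ, at 6.54 and 10.1 CPM, a wider gap than between the group means.

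Of the mitosis genes, 6 rose and 1 fell. Ccnb2, cyclin B2, which activates Cdk1 for entry into mitosis, was measured at 0.482 and 0.4601 CPM (25 and 24 counts) in WT and 1.96 and 3.07 CPM (97 and 169 counts) in the libraries labelled JMJD1C-LKO. It was 5.33-fold higher, the largest rise among the members (edgeR adjusted p = 0.000896). Top2a, the topoisomerase that untangles sister chromatids, stood at 0.733 and 0.422 CPM in WT and 2.27 and 2.81 CPM in the libraries labelled JMJD1C-LKO, 4.39-fold higher (edgeR adjusted p = 0.00146). Mki67, the proliferation marker Ki-67, rose 2.83-fold from 1.601 and 1.74 CPM to 3.58 and 5.88 CPM (edgeR adjusted p = 0.00298). Both libraries labelled JMJD1C-LKO lay above both WT libraries for these 3 genes, and replicate 2 was the higher of the pair each time.

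Ccna2, cyclin A2, acts from S phase into mitosis. It measured 1.02 and 0.978 CPM in WT and 2.04 and 2.25 CPM in the libraries labelled JMJD1C-LKO, 2.15-fold higher (edgeR adjusted p = 0.0106). Its exons share 378 bases with those of Exosc9 on the opposite strand, which did not pass the threshold (log2 fold change -0.08, edgeR adjusted p = 0.597). Ccnb1, cyclin B1, rested on few counts, 13 and 11 in WT and 41 and 38 in the libraries labelled JMJD1C-LKO, with levels of 0.251 and 0.211 CPM and 0.8298 and 0.689 CPM. The rise was 3.26-fold (edgeR adjusted p = 0.0145). Plk1, Polo-like kinase, measured 0.367 and 0.307 CPM in WT and 0.607 and 1.25 CPM in the libraries labelled JMJD1C-LKO (edgeR adjusted p = 0.0372). Replicate 1 labelled JMJD1C-LKO lay much closer to WT than replicate 2. Without the latter the edgeR adjusted p of Plk1 was 0.2698, DESeq2 gave 0.0558, and the most abundant transcript gave 0.0867. The call was lost in 5 of 9 alternatives in all.

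Calls for Ccnb2, Top2a and Mki67 held in all 9 alternatives tried. Without WT replicate 1 or WT replicate 2 the edgeR adjusted p was 0.0853 and 0.105 for Ccna2, 0.0962 and 0.132 for Ccnb1, and 0.149 and 0.209 for Plk1. Ccna2 and Ccnb1 kept their calls in the other 7.

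Wee1 went the other way. Its kinase product holds Cdk1 inactive and so delays mitosis, and the gene is also known as a target of the circadian clock. It was the most abundant gene of the group, at 13.2 and 15.01 CPM in WT and 9.27 and 6.75 CPM in the libraries labelled JMJD1C-LKO, without overlap. The log2 fold change was -0.82 ± 0.15 (SE) (edgeR adjusted p = 0.00455), and the call was lost without WT replicate 2 (edgeR adjusted p = 0.07304) and by the most abundant transcript (0.06696).

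Of the 5 mitosis genes tested that did not pass, 4 had positive log2 fold changes, 0.64 for Cdk1, 1.23 for Cdc20, 1.33 for Aurkb and 1.07 for Foxm1, with edgeR adjusted p between 0.0551 and 0.0911. Without the library labelled JMJD1C-LKO replicate 1, Cdk1 (0.02295) and Cdc20 (0.0165) passed (edgeR adjusted p). Aurka, the spindle pole kinase, measured 2.53 and 3.03 CPM in WT and 2.47 and 2.23 CPM in the libraries labelled JMJD1C-LKO (log2 fold change -0.24 ± 0.21 (SE), edgeR adjusted p = 0.426).

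**Figure D2:**
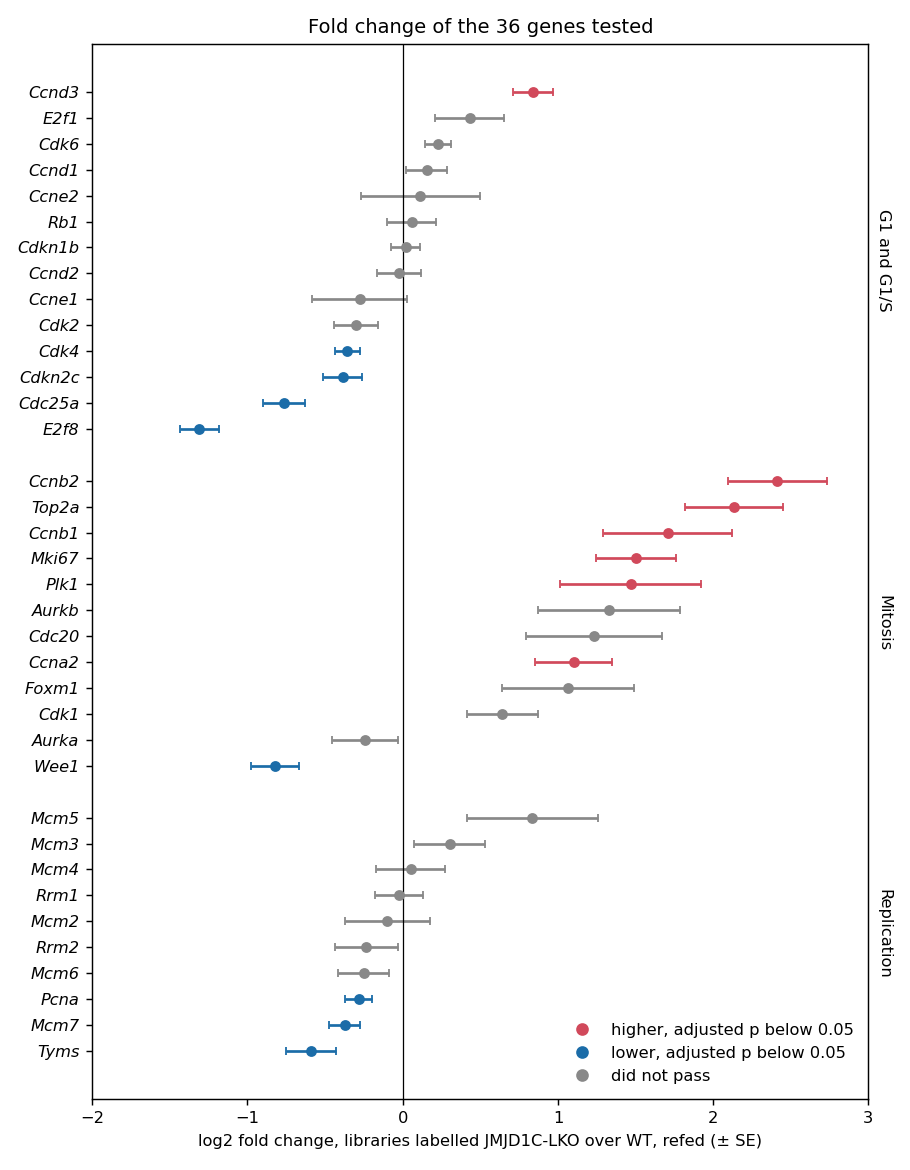
log2 fold change (libraries labelled JMJD1C-LKO over WT, refed) for the 36 genes tested, from edgeR's quasi-likelihood fit on 2 libraries per group. Bars are standard errors implied by the F statistic. Red and blue mark genes past the threshold. The mitosis genes lie to the right of 0 except Aurka and Wee1, and the replication and G1 genes lie on both sides with E2f8 lowest at -1.31.

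Markers of some other liver cell types were also higher in the libraries labelled JMJD1C-LKO, where 14.6% of all genes tested were higher. All 8 markers of Kupffer cells and macrophages rose, from summed levels of 244.7 and 250.8 CPM in WT to 482.2 and 695.2 CPM in the libraries labelled JMJD1C-LKO, with Adgre1 at a log2 fold change of 2.25 (edgeR adjusted p = 0.000313) and Clec4f at 0.97 (edgeR adjusted p = 0.000849). Endothelial markers rose in 5 of 7 genes (102.1 and 102.4 CPM summed in WT, 135.6 and 178.2 CPM in the libraries labelled JMJD1C-LKO). T and NK cell markers rose in 3 of 7 genes tested, Cd3e, Nkg7 and Lck, from 4.495 and 5.18 CPM summed to 9.78 and 12.6 CPM. Stellate cell markers rose in 2 of 7 (Col1a1 and Col1a2), neutrophil markers in 1 of 4 (Csf3r) and erythroid markers in 1 of 7 (Alas2). Among the 5 B cell and the 5 cholangiocyte markers tested, none passed. The listed markers Trac (T and NK cell), Ighm (B cell) and Ly6g (neutrophil) were missing from the RNA-seq table. No other marker of the macrophage, endothelial, T and NK, B cell or neutrophil lists was at 0 counts in any library.

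The library labelled JMJD1C-LKO replicate 2 exceeded replicate 1 in 8 of 8 macrophage markers, 7 of 7 endothelial markers and 8 of 12 mitosis genes, beside 50.6% of all genes tested. The same order held in 5 of 5 B cell and 5 of 5 cholangiocyte markers, none of which passed the threshold. It held in 6 of 7 T and NK cell, 6 of 7 stellate cell, 3 of 4 neutrophil, 4 of 7 erythroid and 1 of 8 hepatocyte markers. This order was therefore not particular to macrophage or endothelial markers. Relative to the WT mean, the median mitosis gene stood at log2 1.07 and 1.49 in replicates 1 and 2 labelled JMJD1C-LKO, and the median macrophage marker at 1.07 and 1.66. The part of these cells in the mitosis result was not tested. In whole-liver RNA, more cells of a type and more RNA per cell cannot be told apart.

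**Figure D3:**
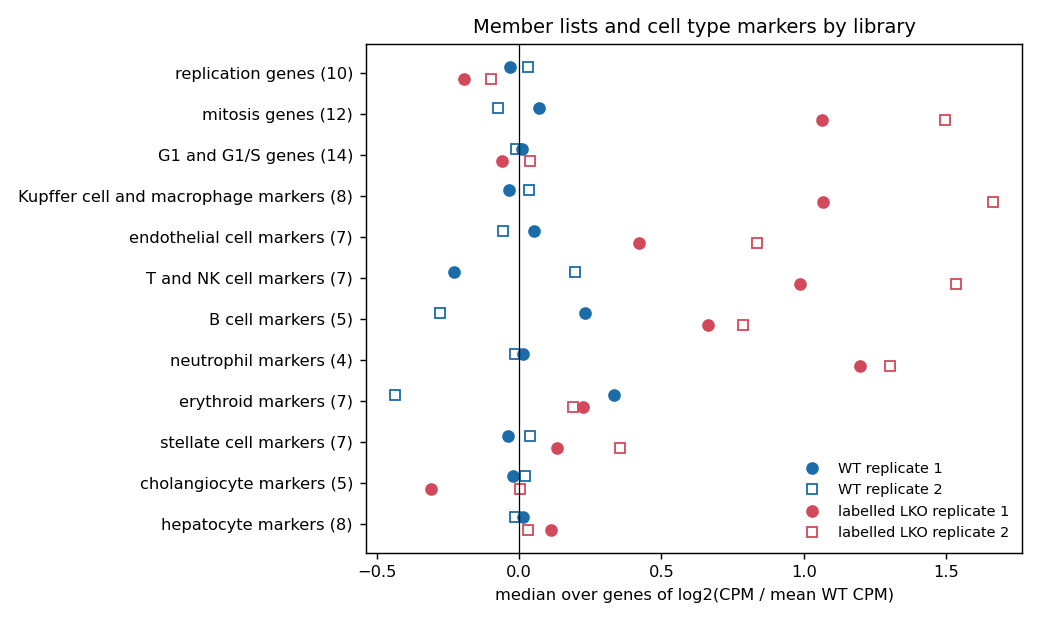
Median over the tested genes of each list (number in brackets) of log2(CPM / mean WT CPM) in each of the 4 libraries. Mitosis genes and the macrophage, T and NK cell and neutrophil markers lie near or above 1 in both libraries labelled JMJD1C-LKO, whereas replication, G1 and hepatocyte genes stay within 0.2 of 0.

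Among the genes of G1 and S entry, 1 rose and 4 fell. Ccnd3, cyclin D3, an activator of Cdk4 and Cdk6, stood at 24.2 and 26.6 CPM in WT and 38.98 and 51.8 CPM in the libraries labelled JMJD1C-LKO, 1.79-fold higher (edgeR adjusted p = 0.00167). Its exons share 359 bases with those of Bysl on the opposite strand, which fell (log2 fold change -0.67, edgeR adjusted p = 0.00118). The other D cyclins did not pass. Ccnd1, the D cyclin known for its rise in regenerating liver, measured 10.8 and 12.9 CPM in WT and 11.96 and 14.4 CPM in the libraries labelled JMJD1C-LKO, with overlap (edgeR adjusted p = 0.417). For Ccnd2 the log2 fold change was -0.03 ± 0.14 (SE).

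E2f8, an atypical E2F that represses E2F targets and favours polyploid hepatocytes, fell most among the members. It measured 11.7 and 12.1 CPM in WT and 4.94 and 4.66 CPM in the libraries labelled JMJD1C-LKO, a level 2.48-fold higher in WT (edgeR adjusted p = 0.0001901). Replicates differed far less than the groups. Cdc25a, the phosphatase that activates Cdk2, fell from 8.604 and 8.47 CPM to 5.16 and 4.899 CPM, a log2 fold change of -0.76 ± 0.14 (SE) (edgeR adjusted p = 0.00355). The promoters of both are printed above.

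Cdk4, the kinase partner of the D cyclins, was the most abundant member in CPM in WT at 35.4 and 35.6 and fell to 28.5 and 27.1 CPM (edgeR adjusted p = 0.0105). Its log2 fold change was modest, -0.36 ± 0.08 (SE). Cdkn2c, the inhibitor p18 of Cdk4 and Cdk6, fell from 8.87 and 8.68 CPM to 6.86 and 6.57 CPM (log2 fold change -0.39 ± 0.13 (SE), edgeR adjusted p = 0.04700). The call for Cdkn2c was lost in 5 of 9 alternatives, DESeq2 among them (adjusted p = 0.09702), and that for Cdk4 without WT replicate 1 (0.0968) or WT replicate 2 (0.106, edgeR adjusted p) and by the most abundant transcript (0.0852). Without WT replicate 1 or WT replicate 2 Cdkn2c stood at 0.259 and 0.219, without the library labelled JMJD1C-LKO replicate 2 at 0.08697, and Cdc25a at 0.0558 and 0.0549 without either WT library (edgeR adjusted p). Ccnd3 and E2f8 kept their calls in all 9.

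The remaining genes of the group did not pass. Cdk2 was measured at 8.66 and 8.84 CPM in WT and 6.42 and 7.78 CPM in the libraries labelled JMJD1C-LKO (edgeR adjusted p = 0.1395). It passed without the library labelled JMJD1C-LKO replicate 2 (edgeR adjusted p = 0.0406). Cdkn1b, the inhibitor p27, was level at 15.2 and 14.9 CPM and 15.4 and 15.1 CPM, and Rb1, the pocket protein itself, measured 4.63 and 4.31 CPM and 4.51 and 4.79 CPM. Ccne1, cyclin E1, was measured at 1.33 and 1.59 CPM in WT and 1.498 and 0.925 CPM in the libraries labelled JMJD1C-LKO. Log2 fold changes of Cdk6, Ccne2 and E2f1 were 0.23, 0.11 and 0.43.

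Wider lists of the same pathways, also chosen with earlier results of these data known, were tested in the same fit. Of 46 other replication genes tested, 3 rose and 6 fell (median log2 fold change -0.14), or 19.6%, below the 28.0% of all genes tested, and the share that fell was close to the 13.4% of all genes. The 4 that fell with the smallest p were Dna2, a helicase and nuclease of lagging-strand synthesis (-1.07), the topoisomerase Top1 (-0.52), the fork protection gene Tipin (-0.83) and the dUTPase gene Dut (-0.58), all on the log2 scale. Gins1 (log2 fold change 0.89, edgeR adjusted p = 0.0218) and Chaf1a (1.10, edgeR adjusted p = 0.0499) rose. Uhrf1, which guides maintenance of DNA methylation at replication forks, had 1 count over both WT libraries and 30 over both libraries labelled JMJD1C-LKO, a ratio of 29.1 (95% exact interval 4.84 to 1187, which covers counting error only and not the spread between libraries). It passed the filter by the latter libraries alone, so its place among the 3 that rose is partly set by the filter.

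Of 39 other mitosis genes tested, 13 rose and 2 fell, or 33.3% and 5.13%. Over all genes tested the shares were 14.6% and 13.4%. The median log2 fold change was 0.73 over all 39, which include 4 that did not pass the count filter by their WT libraries. Of the 13, Hmmr, Ckap2 and Racgap1 passed the count filter by the libraries labelled JMJD1C-LKO alone, where they are high. Among the 35 genes that passed it by WT, 10 rose and 2 fell. Cenpf, a kinetochore gene, measured 0.231 and 0.249 CPM in WT and 1.07 and 1.56 CPM in the libraries labelled JMJD1C-LKO, a log2 fold change of 2.45 ± 0.39 (SE) (edgeR adjusted p = 0.00219). The next by p had log2 fold changes of 1.90 for the kinetochore motor Cenpe, 2.03 for the midbody motor Kif23 and 2.28 for its partner Racgap1 (14 and 7 counts in WT). Bub3 (-0.31) and Spc25 (-0.55) fell. Among the 16 genes of the anaphase-promoting complex, Anapc5 alone passed (log2 fold change 0.43), or 6.25% beside 28.0% of all genes tested. The median was 0.06.

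Of 38 other G1 and checkpoint genes tested, 8 rose and 6 fell, or 21.1% and 15.8%, beside 14.6% and 13.4% of all genes tested. The changes were large in both directions (median log2 fold change 0.02). Cdkn1a, the p53 target and inhibitor p21, was measured at 2.66 and 2.68 CPM in WT and 12.5 and 24.1 CPM in the libraries labelled JMJD1C-LKO (6.85-fold, edgeR adjusted p = 0.000213). Gadd45g, a stress-induced growth arrest gene, rose from 11.5 and 12.4 CPM to 55.1 and 99.03 CPM, and Btg2, an antiproliferative gene, from 5.61 and 5.85 CPM to 21.01 and 36.3 CPM. Ccng2, the atypical cyclin G2, rose by 1.35 on the log2 scale. The related Gadd45a fell from 9.32 and 7.304 CPM to 1.92 and 1.397 CPM (edgeR adjusted p = 0.000141), and Gadd45b had a log2 fold change of -1.25 (edgeR adjusted p = 0.00189). Trp53, which encodes p53, stood at 26.3 and 25.4 CPM in WT and 19.7 and 18.04 CPM in the libraries labelled JMJD1C-LKO (edgeR adjusted p = 0.00509), and E2f6, which encodes a repressor of the E2F family, fell by 0.60 on the log2 scale.

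In ATAC-seq, a minority of the 37 genes had a summit, the highest point of a peak, within 1000 bp of a RefSeq transcript start. In WT fasted livers the count was 11 and 5 genes (29.7% and 13.5%), and in WT refed livers 6 and 6 (16.2% each). In livers labelled JMJD1C-LKO refed it was 4 and 0 (10.8% and 0%). Over the 26180 annotated genes the shares were 12.0% and 5.49%, 9.94% and 6.24%, and 4.06% and 0.886%. The annotated genes include many outside the 15572 of the RNA-seq table, which holds all 37 members, so the 2 sets are not matched. Both WT fasted livers shared 5 members, Mcm3, Mcm4, Top2a, Aurka and Ccne1 (4.36% of all genes), both WT refed livers 3, Mcm3, Mcm4 and Aurka (4.78%), and both livers labelled JMJD1C-LKO 0 (0.397%). The files give presence of a summit and a score for each liver but no counts over shared regions, and no test was made between groups of 2 livers.

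Mcm4 had a summit in 5 of 6 livers, in all but the liver labelled JMJD1C-LKO replicate 2, at -261, -27, -69, -25 and -81 bp from its start. The gene Prkdc starts in the opposite direction within the same window of each of these summits. Mcm3 had one in all 4 WT livers and in neither liver labelled JMJD1C-LKO, at -43, 49, -92 and -100 bp, within or beside the promoter printed above. Its MACS2 scores (the −log10 of the q-value) were 7.36 and 5.82 after fasting and 13.6 and 7.61 after refeeding. Aurka, which shares its promoter with Cstf1, had a summit in all 4 WT livers, 165 to 240 bp upstream, with scores of 16.2 and 7.84 after fasting and 4.96 and 11.1 after refeeding. Fasted and refed scores overlapped for Aurka, and for Mcm3 both refed scores lay above both fasted ones. Ranks within each list gave another order. Mcm3 ranked 1657 of 5220 and 1218 of 7632 after fasting. After refeeding it ranked 503 of 5027 and 1007 of 3119, which overlapped as shares. Aurka ranked 310 of 5220 and 776 of 7632 after fasting. After refeeding it ranked 2629 of 5027 and 593 of 3119, lower as shares. Depth is unknown, so neither measure can order the livers by feeding state.

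Top2a had a summit in 4 livers, both WT fasted, WT refed replicate 2 and replicate 1 labelled JMJD1C-LKO, between 79 and 202 bp upstream, among its CCAAT boxes. Ccne1 had one in both WT fasted livers, WT refed replicate 1 and replicate 1 labelled JMJD1C-LKO. Ccna2 differed in position, with its summit 826 to 878 bp downstream of the start in 3 livers. Cdc25a had a summit in 2 WT livers, and Mcm6, Mcm7, Ccnb1, Wee1, Ccne2 and Cdkn1b in 1 liver each. The other 24 genes, Ccnb2, Mki67, E2f8, Pcna, Cdk4 and Ccnd1 among them, had none in any of the 6 livers.

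Since the number of summits differed between livers, the 825 strongest of each were compared. The members left in both livers were then 1 after fasting and 0 after refeeding, and 0 in the livers labelled JMJD1C-LKO. The share of all genes left under this rule is not given here, so the drop cannot be called particular to the members. With a summit in either liver the count labelled JMJD1C-LKO was 4 (4.55% of all genes). Length of the list and feeding state or genotype cannot be told apart in these counts.

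**Figure D4:**
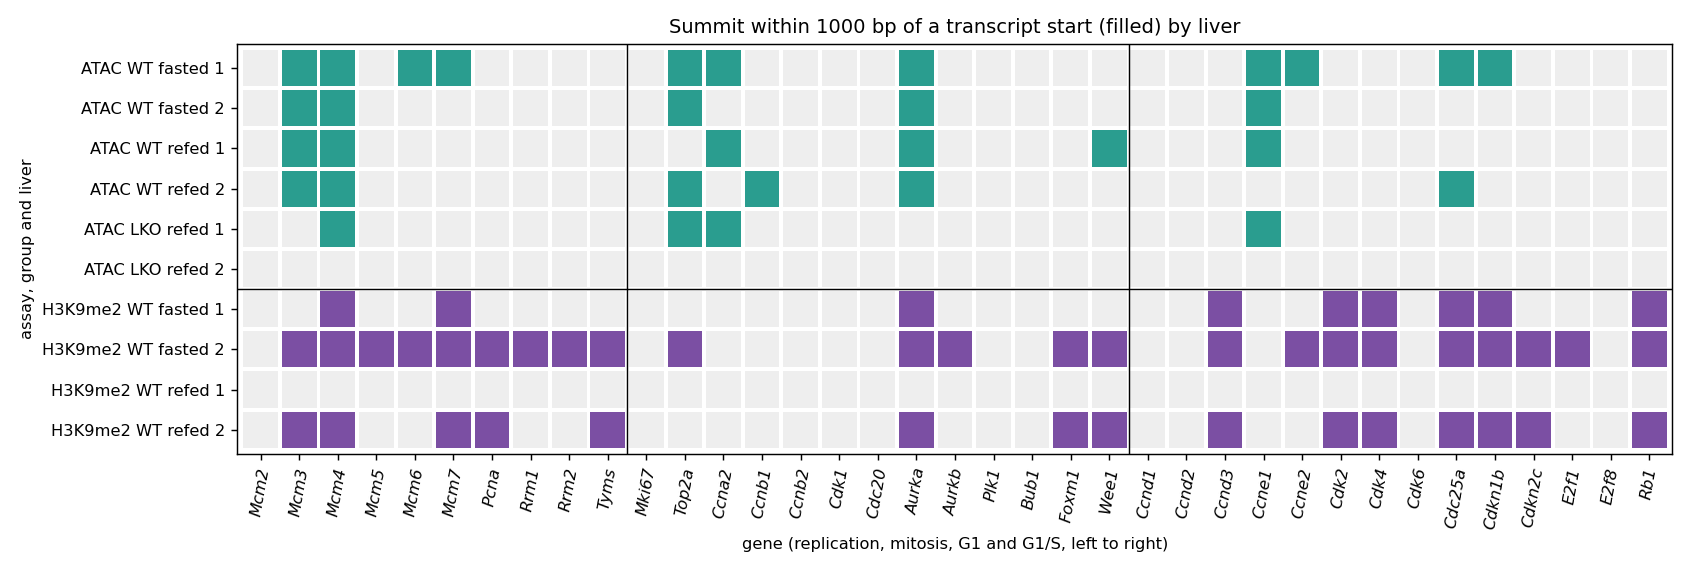
Presence (filled) of an ATAC-seq (green) or H3K9me2 (purple) summit within 1000 bp of a transcript start for each of the 37 genes in each liver. ATAC summits recur at Mcm3, Mcm4, Top2a, Aurka and Ccne1; H3K9me2 summits cover 9 of 10 replication genes in WT fasted replicate 2 and are absent in all livers from 8 mitosis genes.

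H3K9me2 summits were more widespread. WT fasted livers had them at 9 and 23 of the 37 genes, or 24.3% and 62.2%, beside 29.3% and 42.7% of all genes. WT refed livers had them at 0 and 15, or 0% and 40.5%, beside 0.233% and 35.1%. The 9 genes of fasted replicate 1 were all among those of fasted replicate 2 (both livers, 29.1% of all genes), namely Mcm4, Mcm7, Aurka, Ccnd3, Cdk2, Cdk4, Cdc25a, Cdkn1b and Rb1. No member had a summit in both refed livers (0.0420% of all genes), because WT refed replicate 1 had none. Without that liver, the refed count was 15, between the counts of the fasted livers.

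All 15 genes of WT refed replicate 2 were also among the 23 of WT fasted replicate 2. The 8 genes with a summit in a fasted and in neither refed liver were Mcm5, Mcm6, Rrm1, Rrm2, Top2a, Aurkb, Ccne2 and E2f1, and their scores in WT fasted replicate 2 ran from 3.02 for Aurkb to 24.9 for Rrm1. Over all genes 7.86% had a summit in a fasted and in neither refed liver, and the nearly empty list of WT refed replicate 1 leaves this count resting on WT refed replicate 2. Aurka had the strongest member summit at a start, with scores of 19.4 and 77.6 in the fasted livers and 23.5 in WT refed replicate 2, between 620 and 670 bp upstream, beyond the Cstf1 start. Cdk4 had the next highest score in WT fasted replicate 2 but not in the other livers, with scores of 7.81 and 57.7 after fasting and 19.1 in WT refed replicate 2, 203 to 301 bp downstream of its start.

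By group, the mark was in either fasted liver at 9 of 10 replication genes, 5 of 13 mitosis genes and 9 of 14 genes of G1 and S entry, beside 42.9% of all genes. Mki67, Ccna2, Ccnb1, Ccnb2, Cdk1, Cdc20, Plk1 and Bub1 had no H3K9me2 summit at the start in any liver. Nor did Mcm2, Ccnd1, Ccnd2, Ccne1, Cdk6 and E2f8. The 23 genes with the mark in a fasted liver had a median WT level of 1.66 CPM per kilobase and the 14 without one 0.349, so genes marked at their start were on the whole the more abundant in RNA of refed liver.

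Set against the RNA result, 7 of the 8 genes that were lower in the libraries labelled JMJD1C-LKO had an H3K9me2 summit in WT refed replicate 2 (Mcm7, Pcna, Tyms, Wee1, Cdk4, Cdc25a and Cdkn2c), and E2f8 did not. Of the 7 that were higher, 1 had such a summit (Ccnd3). Of the 21 that did not pass, 7 did. The same share over all genes was 35.1%, or 35.3% for either refed liver. Genes with a summit in a refed liver had a median WT level of 3.72 CPM per kilobase and those without one 0.425, so the mark and the level cannot be told apart in these counts. For ATAC-seq in either WT refed liver, the numbers were 2 of 8, 3 of 7 and 4 of 21, beside 11.4% of all genes.

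The summits of the 2 assays lay at different distances from the start. Of 32 ATAC summits at the members, 26 were within 200 bp of the nearest start (median distance 116 bp), and 26 were upstream. Of 58 H3K9me2 summits, 6 were within 200 bp (median 354 bp), with 20 upstream and 38 downstream. Over all genes the shares within 200 bp were 65.0% and 20.3%, with medians of 155 and 291 bp. Some summits, mostly of H3K9me2, at Mcm4, Mcm7, Foxm1 and Aurka lay nearer the start of another gene (Prkdc, Ap4m1, Rhno1 and Cstf1, respectively). They are counted here by their distance to the member. The 10 members with both kinds of summit in some liver were Mcm3, Mcm4, Mcm6, Mcm7, Top2a, Aurka, Wee1, Ccne2, Cdc25a and Cdkn1b. At Cdc25a, for example, the ATAC summits were 118 and 140 bp upstream and the H3K9me2 summits 576 to 697 bp downstream.

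**Figure D5:**
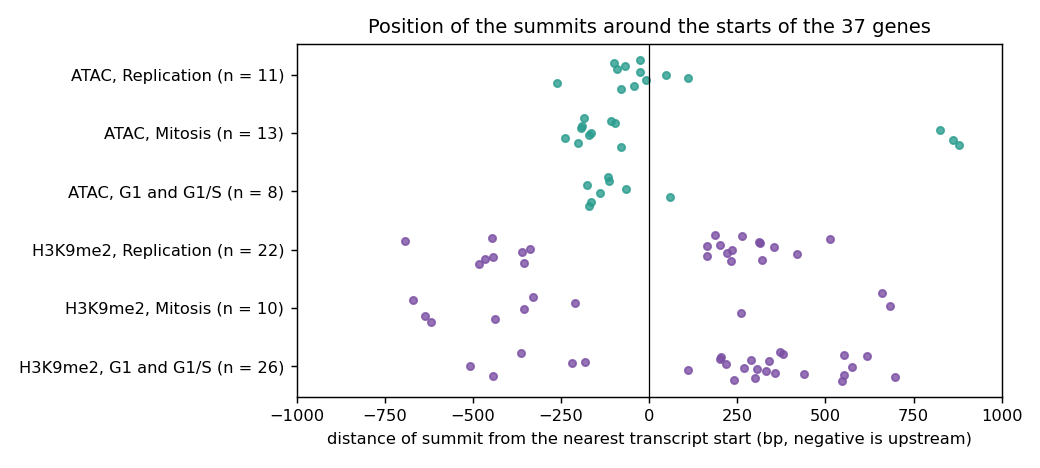
Distance (bp, negative upstream) of each ATAC-seq (32) and H3K9me2 (58) summit from the nearest transcript start of its gene, by group, all livers together. ATAC summits gather just upstream of the start, apart from the 3 of Ccna2 beyond 800 bp downstream, and H3K9me2 summits lie on both sides, with 6 of 58 within 200 bp of the start.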

How the data were processed

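The RNA-seq table that the authors deposited holds estimated counts of RefSeq transcripts (mm10; Partek and HISAT2 are in the submitters' processing notes), not scaled, and whether counting used strand is not given in the sources used here. A second table with the authors' own comparison was not used. Transcript counts were added up within a gene, rounded, and filtered with filterByExpr (minimum count 10). The main test was edgeR 4.0.16 (TMM, quasi-likelihood F test, no block), and DESeq2 1.42.0 was an alternative. Standard errors (SE) are those implied by the F statistic, the absolute log2 fold change divided by the square root of F. Data were simulated from the mean levels and depths of these libraries for refed JMJD1C-LKO against WT over 14151 genes. In them, 82 of 100 genes changed 2-fold and 37 of 100 changed 1.5-fold were called, with 3 false calls. The simulation gave every gene the same fixed dispersion, so these rates may not hold for genes with a wider spread between libraries. For ATAC-seq and ChIP-seq, the authors called peaks in each liver with MACS2 2.1.1 (q-value cutoff 0.05) and deposited summits with the −log10 of the q-value. Depth is unknown from these files. Summits were assigned to a gene within 1000 bp of a RefSeq start (GRCm38.p6, the mm10 sequence).

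The members and lists were chosen with earlier results of these data known. Values in every sample are given for members past the threshold, members with a summit in both livers of a group, the most abundant member of each group, Mki67, Top2a and Ccnd1. Other lists are named by at most 4 genes of the smallest p in each direction, and other members by ranges or as exceptions. p-values measure the spread between 2 pooled libraries per group. No pairing of libraries by replicate number is stated in the sources used here, so the main test used none. The correlation of same-numbered deviations from the group means was -0.01, which cannot decide whether libraries were paired.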

Additional observations from a re-analysis of the deposited data

How the results depend on the processing

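Of 15 members past the RNA-seq threshold, 12 passed in DESeq2, 15 with library size scaling, 15 without a count filter, 16 with the replicate block (adding Cdc20) and 9 by the most abundant transcript, which also gave 2326 of all genes (3958 with transcripts summed) and 23 other pathway genes (39). Leaving out each library gave 5 to 17 members, 1068 to 5180 genes, 12 to 58 other pathway genes and 14 to 28 markers (22). The alternatives for the markers were chosen after seeing the data. The replicate block gave 4207 genes. In no alternative did a member past the threshold change direction. A lone library is assumed to vary like the other group. Members with an ATAC summit in both livers were 5 (fasted), 3 (refed) and 0 (labelled JMJD1C-LKO). With scores of at least 5, 3 remained after fasting. With equal numbers of strongest summits the counts were 1 and 0. Counting either liver gave 11, 9 and 4. Single livers gave 5 to 11, 6 to 6 and 0 to 4. For H3K9me2, equal numbers left 0 of 9 fasted members, either liver gave 23 fasted and 15 refed, and single livers 9 to 23 and 0 to 15. Shares of all genes under the score and equal-number rules are not given here, so these drops cannot be called particular to the members. The main limits are 2 samples per group, unknown depth of the summit lists, and exons shared with opposite-strand genes (Ccna2, Cdc20, Ccnd1, Ccnd3, Ccne2 and E2f8).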

Other observations

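Within the genes but away from their starts, 4 members held summits, all in introns. Rb1 had an H3K9me2 summit far downstream of its nearest start in both WT fasted livers (87636 and 87532 bp, scores 17.3 and 83.7) and in WT refed replicate 2 (86892 bp, score 25.01), each with a higher score than the summit at its start in that liver. E2f8, which had none at its start, had 1 at 2787 and 2813 bp downstream in the fasted livers (scores 9.23 and 24.9) and at 2796 bp in WT refed replicate 2 (score 10.7). Wee1 had H3K9me2 summits 1322 to 2379 bp downstream in WT fasted replicate 2 and WT refed replicate 2. Ccnd3, the G1 cyclin that rose, had intronic ATAC summits at 6129 bp in WT refed replicate 1 and 6372 bp in replicate 1 labelled JMJD1C-LKO, and an H3K9me2 summit at 3318 bp in WT fasted replicate 2. These positions were not compared between groups by a test.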
